A study of Homo sapiens with 6 samples.

Results

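MMGT1, SKAP2, RAB21, CIB2 and C12orf75 are 5 genes whose brightest probe set read lower with 1 of 2 siRNAs against PPP2R2A than with the other siRNA and with the scramble control. They are 5 of the 19775 genes that the platform table names singly, and 15 of the 41091 probe sets that carry a single symbol. Cells of RT-112, an established human bladder cancer line, received siPPP2R2A_1 (siRNA 1), siPPP2R2A_2 (siRNA 2) or a scramble siRNA, and 2 arrays, A and B, were run per group. Each siRNA was given at 50 nM with Lipofectamine RNAiMAX, first at plating at 50% confluence and again 24 h later, and RNA was taken after another 24 h. PPP2R2A encodes a B55 regulatory subunit of the phosphatase PP2A. The series describes the arrays as technical duplicates, so an SD or p-value here measures the spread between these arrays and not between separate cultures, and 6 arrays limit the precision.

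An siRNA directs the RNA-induced silencing complex to transcripts that it matches, and a short stretch near its 5′ end, the seed, can also lower transcripts that match it only in part. For that reason knockdown studies commonly use more than 1 siRNA per gene and set their effects side by side. The sources used here do not give the siRNA sequences, so a match between siRNA 1 and any of the 5 transcripts was not tested. The 5 gene products have different roles. MMGT1, also named EMC5, is a subunit of the endoplasmic reticulum (ER) membrane protein complex (EMC), which inserts membrane-spanning segments of new proteins. RAB21 is a small GTPase of early endosomes that binds integrin alpha chains and directs their traffic. SKAP2 is an adaptor of Src-family kinases that links integrins to actin, best known in leukocytes. CIB2 is a calcium- and integrin-binding protein needed for mechanotransduction in the hair cells of the inner ear. C12orf75, also named OCC-1, was described as overexpressed in colon carcinoma.

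The targeted gene was lower with both siRNAs on 2 of its 3 probe sets above the filter on dim signal. On its brightest probe set PPP2R2A read 336 and 397 with siRNA 1 and 510 and 533 with siRNA 2, against 1381 and 1589 with scramble, which left 24.7% and 35.1% of the scramble mean. On a dimmer probe set 20.6% and 24.6% were left. The third read 334 and 221 with siRNA 1 and 179 and 272 with siRNA 2, against 287 and 281 with scramble, which left 97.7% and 79.6%. Array medians lay between 69.3 and 76.2 signal units, and each array's mean after trimming 2% from each tail was 500.067 to 500.07. Duplicates correlated at 0.979 to 0.98 across the genes tested, against 0.97 to 0.978 between arrays of different groups. The 3′ to 5′ signal ratio of ACTB, a measure of RNA integrity and labelling, was 6.52 and 7.82 with siRNA 1, 7.47 and 12.4 with siRNA 2, and 5.43 and 5.94 with scramble. The same ratio for GAPDH was 1 and 1.02 with siRNA 1, 1 and 0.943 with siRNA 2, and 1 and 1 with scramble. The part of either ratio in the results below was not tested. All 9 epithelial and urothelial markers examined were above the array median on at least 2 arrays, among them EPCAM, KRT7 and GATA3. So were 1 of 3 leukocyte markers (CD3E), 2 of 3 fibroblast markers (COL1A1 and DCN), 2 of 3 endothelial markers (PECAM1 and CDH5) and 0 of 3 hair cell markers. The leukocyte sum was 118 on both siRNA 1 arrays, 17 and 69 with siRNA 2, and 66 and 88 with scramble, and its part in the results was not tested. In such bulk RNA, fewer cells that carry a transcript and less of it per cell cannot be told apart.

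The members were chosen by their signals with siRNA 1 against siRNA 2 and against scramble, so those differences are given below as descriptions. MMGT1 has a single probe set, 225125_at. It read 599 and 577 with siRNA 1, 2272 and 2556 with siRNA 2, and 2344 and 2255 with scramble. Both siRNA 1 arrays lay far below the other 4, and the siRNA 2 and scramble arrays overlapped. The siRNA 1 mean was 588 ± 15.4, or 25.6% of the scramble mean of 2299.8 ± 62.9 (SD, n = 2), close to the share of PPP2R2A left by the same siRNA. The log2 differences were -1.97 for siRNA 1 minus scramble and -2.03 for siRNA 1 minus siRNA 2.

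RAB21 has 4 probe sets, of which 3 passed the filter on dim signal (above the array median on at least 2 arrays). The brightest, 203885_at, read 821 and 779 with siRNA 1, 2261 and 2202 with siRNA 2, and 1893 and 1849 with scramble. Here the 3 groups did not overlap: siRNA 1 was lowest and siRNA 2 highest. The other probe sets that passed, 239329_at and 226268_at, retained 41.4% and 41.9% of the scramble mean with siRNA 1, against 42.7% on the brightest. On 239329_at the signals were 117 and 158 with siRNA 1, 348 and 378 with siRNA 2, and 374 and 291 with scramble. On 226268_at they were 84.6 and 82.2 with siRNA 1, 254 and 195 with siRNA 2, and 232 and 166 with scramble. Both put siRNA 1 below all other arrays, while siRNA 2 and scramble overlapped. The remaining probe set, 241263_at, read 14.7 to 81.1 over all arrays and was below the array median on 5 of 6. It read 34.8 and 63.5 with siRNA 1, 81.1 and 59.9 with siRNA 2, and 37.4 and 14.7 with scramble. There the siRNA 1 mean was above the scramble mean, and both siRNA 2 arrays were above both scramble arrays.

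SKAP2 has 6 probe sets, and 4 passed the filter. On the brightest, 204362_at, the signals were 1212 and 1177 with siRNA 1, 3277 and 3115 with siRNA 2, and 3349 and 3425 with scramble. The siRNA 1 mean was 35.3% of scramble and 37.4% of siRNA 2. A probe set of similar brightness, 225639_at, read 667 and 818 with siRNA 1, 2367 and 2109 with siRNA 2, and 2226 and 2394 with scramble, and left 32.2% of the scramble mean. More signal was left on the pair whose suffix _s marks probes that several transcripts can share. On 216899_s_at, which read 643 and 490.5 with siRNA 1, 996 and 899 with siRNA 2, and 1191 and 1248 with scramble, siRNA 1 left 46.5%. On 204361_s_at, which read 325 and 305 with siRNA 1, 674 and 609.6 with siRNA 2, and 754 and 693 with scramble, it left 43.5%. The groups did not overlap on either, with siRNA 1 lowest and siRNA 2 in between. Neither of the 2 dim probe sets had both siRNA 1 arrays below the rest. On 241331_at siRNA 1 read 36.9 and 58.3, siRNA 2 read 43.1 and 63.6, and scramble 52.5 and 70.1, with the group means in the same order but the arrays overlapping. On 217035_at siRNA 1 read 61.0 and 53.1, siRNA 2 read 26.4 and 23.2, and scramble 45.8 and 83.6. Here both siRNA 2 arrays were below the other 4, on a probe set below the array median on 5 of 6 arrays.

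CIB2 was the dimmest of the 5 genes. Its brightest probe set, 205008_s_at, read 20.4 and 22.4 with siRNA 1, 91.6 and 94.7 with siRNA 2, and 106 and 84.4 with scramble. The siRNA 1 arrays were below the array median and the other 4 above it, so the gene passed the filter only through the groups in which it was high and the size of its difference, 22.5% of scramble left, rests on the background level. With 16 in place of 1 added before the logarithm, its log2 difference was -1.56 for siRNA 1 minus scramble, against -2.09. The other CIB2 probe sets, 205007_s_at and 214065_s_at, read 4.16 to 44.9, below the median on every array, and did not place siRNA 1 below the rest.

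Judged on the brightest probe sets in log2 units, C12orf75 was the member in which siRNA 2 stood farthest from scramble. Its single probe set, 225105_at, read 179.5 and 191 with siRNA 1, 608 and 552 with siRNA 2, and 292 and 350.6 with scramble. The 3 groups did not overlap, and the order was siRNA 1, scramble, siRNA 2. The siRNA 1 mean was 57.7% of scramble but 31.9% of siRNA 2, and siRNA 2 stood above scramble as well as siRNA 1 below it.

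**Figure D1:**
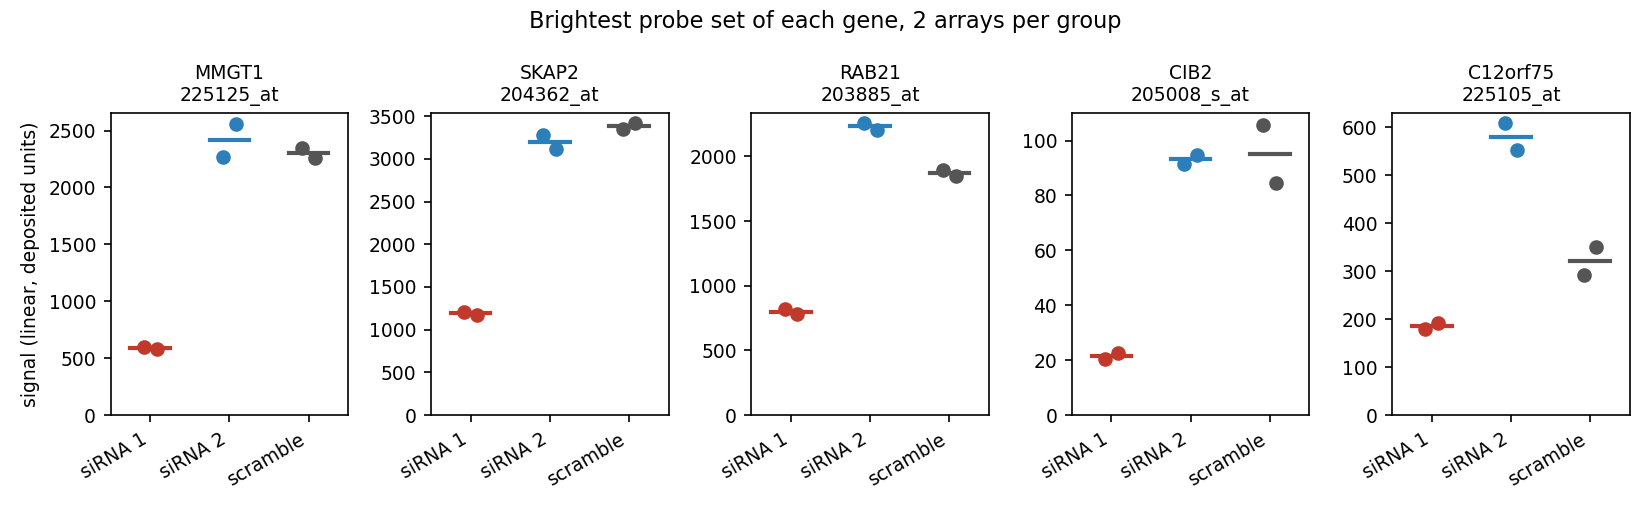
Signal of the brightest probe set of each gene in linear deposited units, from 0, for siRNA 1, siRNA 2 and scramble; points are the 2 arrays of a group and bars their mean. Both siRNA 1 points lie below the other 4 in each panel, and siRNA 2 lies above scramble for RAB21 (2261 and 2202 against 1893 and 1849) and C12orf75 (608 and 552 against 292 and 350.6).

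Over the 15 probe sets of the 5 genes, 10 passed the filter, and on each of these both siRNA 1 arrays were below the other 4. That arrangement was found for 10.3% of the 23969 single-symbol probe sets above the filter and for 8.93% of all 41091 without it; since 5 of the 10 chose the members and the others read the same RNA, nothing is read from the count. The 10 probe sets retained 22.5% to 57.7% of the scramble mean with siRNA 1 (median 41.6%) and 77.7% to 181% with siRNA 2. The 5 that were not the brightest of their gene, all of SKAP2 or RAB21, retained 32.2% to 46.5% with siRNA 1. None of the 5 dim probe sets had both siRNA 1 arrays below all others.

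**Figure D2:**
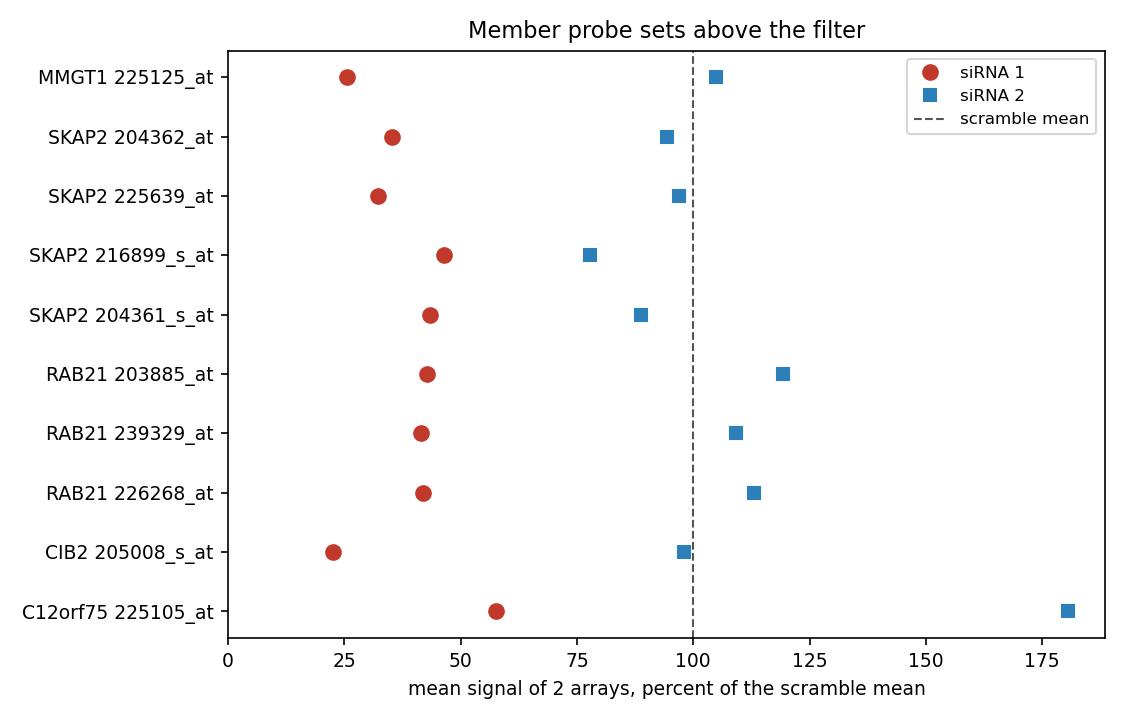
Mean signal of the 2 siRNA 1 arrays (circles) and the 2 siRNA 2 arrays (squares) as a percent of the scramble mean (dashed line at 100), for the 10 probe sets above the filter. The siRNA 1 circles span 22.5% to 57.7%, and the siRNA 2 squares span 77.7% (SKAP2, 216899_s_at) to 181% (C12orf75).

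Limma, with Benjamini-Hochberg adjustment over 12735 genes, called a gene at an adjusted p under 0.05 and at least 1.5-fold. It called 4 of the 5 members lower for siRNA 1 minus scramble, a contrast in which 0.181% of genes were called lower, and C12orf75 was the exception (log2 difference -0.79). For siRNA 1 minus siRNA 2 it called 5 of 5 lower, where 0.126% of genes were called lower and 0.0864% higher. The rule used both contrasts, so these counts carry no weight of their own. Nor were the members those with the largest differences: ordered from the lowest siRNA 1 minus siRNA 2 difference, CIB2 was at place 17, MMGT1 at 21, C12orf75 at 51, RAB21 at 66 and SKAP2 at 76. SKAP2 and RAB21 had close duplicates, with residual SDs of 0.037 log2 units each against a median of 0.129 over all genes. Only 4.49% and 4.44% of genes had a smaller one. A small residual SD favours a call, and the members were chosen with earlier results of these data known, so this is no separate result. Both genes were also brighter than most, with 79.2% and 69.1% of genes dimmer. The residual SD was 0.076 for MMGT1, 0.127 for C12orf75 and 0.143 for CIB2.

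The difference between siRNA 2 and scramble equals the difference of the 2 contrasts by which the genes were chosen, and a transcript lowered as much by siRNA 2 could not have become a member. The values, calls and intervals that follow are therefore descriptions and no independent test. They do not show that siRNA 2 left these transcripts alone. Limma called 0 of 5 members, against 0.597% of all genes (0.44% higher and 0.157% lower), and 2 of 5 had an unadjusted p under 0.05, as did 20.8% of all genes. For MMGT1 the log2 difference, siRNA 2 minus scramble, was 0.068 (95% interval -0.18 to 0.31). SKAP2 stood at -0.084 (-0.29 to 0.12) and CIB2, which passed the filter only through these 4 arrays, at -0.020 (-0.37 to 0.33). RAB21 stood at 0.25 (0.049 to 0.46). C12orf75 stood at 0.85 (0.53 to 1.18), a 1.81-fold higher level. Both siRNA 2 arrays were above both scramble arrays for RAB21 and C12orf75, as they were for 28.4% of genes. When the prior variance followed the mean signal (an intensity trend), limma called 1 of 5 members, C12orf75, in a fit that called 3.71% of genes. Limma also called C12orf75 (adjusted p = 0.0224) among genes above the median on all 6 arrays, a fit that called 399 of 10868 genes and left out CIB2.

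The SKAP2 mean with siRNA 2 was below that with scramble on each of its 4 probe sets above the filter. Both siRNA 2 arrays were below both scramble arrays on 3 of them, an arrangement that 24% of genes showed. When every probe set was fitted as its own feature, 216899_s_at gave the lowest log2 difference for siRNA 2 minus scramble, -0.36 (95% interval -0.79 to 0.058). The same fit gave -0.17 for 204361_s_at (-0.46 to 0.11) and -0.047 for 225639_at (-0.42 to 0.33).

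**Figure D3:**
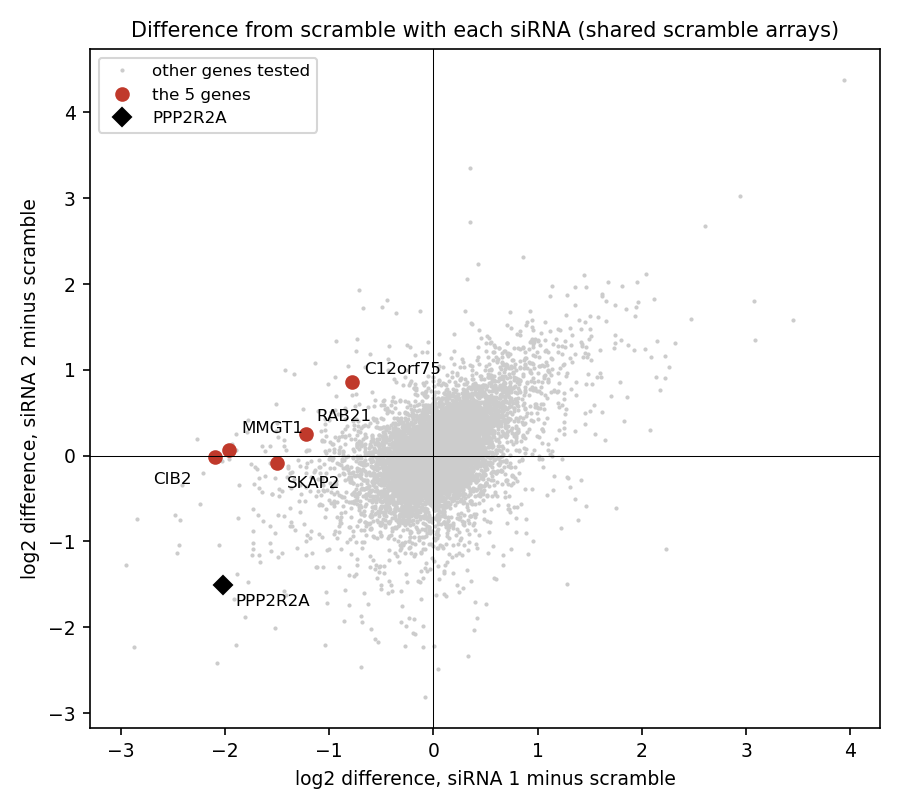
Log2 difference from scramble with siRNA 1 (horizontal) and siRNA 2 (vertical) for 12735 genes (grey), the 5 genes (red) and PPP2R2A (black diamond); both axes use the same 2 scramble arrays, so any slope of the cloud is partly built in. PPP2R2A is low on both axes (-2.02 and -1.51), while MMGT1, CIB2 and SKAP2 lie near 0 on the vertical axis and C12orf75 at 0.85.

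Partners and relatives of the members were examined next, from lists chosen with earlier results of these data known. Besides MMGT1, 9 other EMC subunit genes were listed, all of which were measured above the filter. Their log2 differences for siRNA 1 minus scramble ran from -0.26 (EMC2) to 0.090 (EMC9), with a median of -0.0022, against -1.97 for MMGT1. EMC2 read 5039 and 4750.2 with siRNA 1, 5719 and 6001 with siRNA 2, and 5810 and 5885.5 with scramble (log2 difference -0.26, limma adjusted p = 0.244). EMC8 averaged near the same level in all groups, at -0.0022 for siRNA 1 minus scramble. For siRNA 2 minus scramble the 9 ran from -0.25 to 0.24. Of 12 tested genes of other ER insertion routes, such as the translocon subunits SEC61A1 and SEC61B and the receptor CAMLG, the siRNA 1 minus scramble differences ran from -0.26 to 0.33 (median 0.050). SEC62 was highest among them with both siRNAs, at 0.33 (adjusted p = 0.193) and 0.49 (adjusted p = 0.0789).

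Of the 8 Rab GTPases listed as relatives of RAB21, all were tested. RAB5A, the best-known organiser of early endosomes, read 7620 and 7680 with siRNA 1, 5680.4 and 6478 with siRNA 2, and 7317 and 7386 with scramble. RAB22A had the lowest difference for siRNA 1 minus scramble, -0.29 (adjusted p = 0.280), and read 2209.7 and 2237 with siRNA 1, against 2757 and 2668 with scramble. RAB24 had the highest, 0.34 (adjusted p = 0.401). The list's median was 0.15, and RAB21 itself stood at -1.23. Among 11 tested regulators, effectors and cargo of RAB21, its exchange factor ANKRD27 stood at -0.22 (adjusted p = 0.368), and ITGB1, the integrin beta chain paired with its cargo, at 0.0038. VAMP7, a vesicle fusion protein bound by ANKRD27, read 5094 and 5168 with siRNA 1, 4416 and 4491 with siRNA 2, and 3624 and 3701 with scramble. Its siRNA 1 minus scramble difference of 0.49 was not called (adjusted p = 0.0840). ITGA2, a collagen-binding integrin alpha chain, read 4812 and 4833 with siRNA 1, 3180.5 and 3050.1 with siRNA 2, and 3915 and 3644 with scramble. Its siRNA 1 minus siRNA 2 difference was 0.63 (adjusted p = 0.0768).

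**Figure D4:**
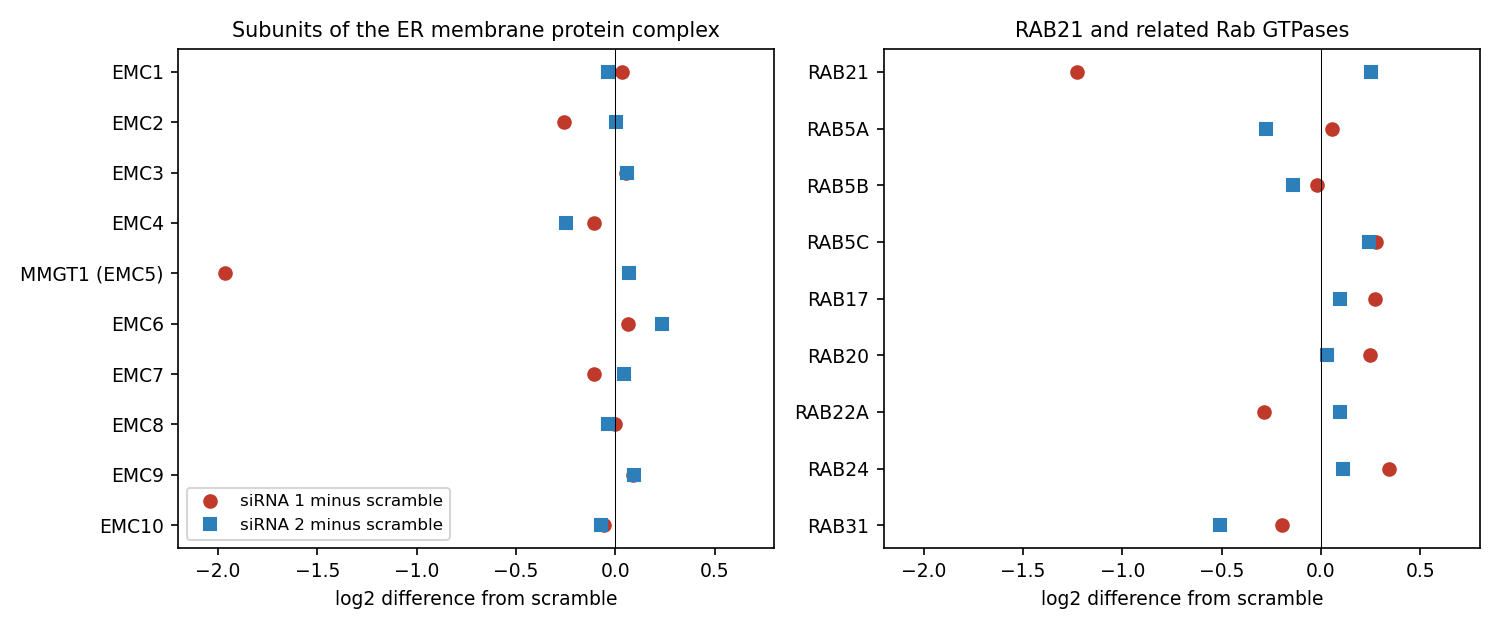
Log2 difference from scramble with siRNA 1 (circles) and siRNA 2 (squares) for the subunits of the EMC (left) and for RAB21 and 8 related Rab GTPases (right). MMGT1 at -1.97 and RAB21 at -1.23 with siRNA 1 lie apart from the other genes drawn, which with siRNA 1 range from -0.26 to 0.090 on the left and from -0.29 to 0.34 on the right.

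The SKAP2 paralog SKAP1 did not pass the filter, nor did the adaptors PRAM1 and APBB1IP. FYB1, a SKAP-binding adaptor, read 1952 and 2198 with siRNA 1, 1972 and 2345 with siRNA 2, and 1864 and 1734 with scramble (siRNA 1 minus scramble 0.20, adjusted p = 0.502). Among the Src-family kinases, FYN stood at -0.30 with siRNA 1 (adjusted p = 0.311) and -0.47 with siRNA 2 (adjusted p = 0.129), SRC at 0.091 and -0.16, LYN at -0.083 and -0.041, and YES1 at -0.14 and -0.066, each minus scramble. Over the 7 tested members of this list the median was -0.14 for siRNA 1 and -0.12 for siRNA 2. CIB1, the widely expressed relative of CIB2, read 6144 and 5583 with siRNA 1, 6144 and 6536 with siRNA 2, and 5980.2 and 5986.5 with scramble, with a siRNA 1 minus scramble difference of -0.031. CIB3 was dim and varied between duplicates, and CIB4 did not pass the filter. Of 16 listed CIB partners and hair-cell channel genes, 6 were tested, and TMC1, TMC2, PCDH15 and CDH23 were among the 10 below the filter.

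Across these lists 55 genes other than the members were tested, and limma called 0 of them in siRNA 1 minus scramble, siRNA 1 minus siRNA 2 or siRNA 2 minus scramble. The shares called over all genes, in either direction, were 0.393%, 0.212% and 0.597%. At an unadjusted p under 0.05 there were 9, 7 and 9 of the 55, against 16.2%, 18.7% and 20.8% of all genes. With an intensity trend the counts were 0, 1 (ITGA2, higher with siRNA 1 than with siRNA 2, adjusted p = 0.000993) and 0, where 2.35%, 2.84% and 3.71% of genes were called. A call also needed 1.5-fold, which VAMP7, SEC62 and ITGA2 did not reach there for siRNA 1 minus scramble (limma adjusted p = 0.00279, 0.0319 and 0.0246). Nor did VAMP7, SEC62, ITGA2 and RAB31 for siRNA 2 minus scramble (limma adjusted p = 0.0296, 0.00318, 0.0426 and 0.0197). The median log2 differences of the 55 were -0.011, -0.0038 and 0.031, close to those of all genes, 0.011, -0.0073 and 0.016.

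The genes next to the members on their chromosomes were set beside them. RefSeq places MMGT1 on chromosome X, SKAP2 on 7, RAB21 and C12orf75 on 12 and CIB2 on 15. For each member the nearest tested gene on either side was taken, 10 in all, and limma called 0 in any of the 3 contrasts, with 1, 2 and 4 at an unadjusted p under 0.05, where 16.2%, 18.7% and 20.8% of all genes were. Their siRNA 1 minus scramble differences ran from -0.41 to 0.37. RAB21 lies between TMEM19 and TBC1D15, which stood at 0.046 and 0.060, and CIB2 between TBC1D2B and IDH3A, at 0.27 and 0.37. NUAK1, a kinase gene beyond C12orf75, read 441 and 433 with siRNA 1, 699 and 637 with siRNA 2, and 444 and 369.99 with scramble. Its siRNA 2 minus scramble difference of 0.72 had the same sign as that of C12orf75 and was not called (adjusted p = 0.0776). It was the 1 neighbour that limma called when fitted with an intensity trend, higher here (adjusted p = 0.0112) and lower for siRNA 1 minus siRNA 2 (log2 difference -0.61, adjusted p = 0.029). With siRNA 1 NUAK1 stood at 0.11, where C12orf75 stood at -0.79.

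Promoter sequences are shown for the 4 of 5 members matched in the RefSeq promoter table (GRCh38.p14), 250 bases before to 50 after the gene start, so that the upstream regions of genes chosen for 1 shared pattern can be set side by side. Capitals mark matches, on either strand, to the motifs searched: TATAAA for the TATA box, CCAAT for the site of NF-Y, GGGCGG for the GC box, CACGTG for the E box, TGACGTCA for the CRE, TGANTCA for AP-1, CCGGAAG for ETS factors, and the NRF1 site. The regions are chr7:26857674-26857973 (minus strand), chr12:71754613-71754912 (plus), chr15:78131486-78131785 (minus) and chr12:105330441-105330740 (plus).
SKAP2: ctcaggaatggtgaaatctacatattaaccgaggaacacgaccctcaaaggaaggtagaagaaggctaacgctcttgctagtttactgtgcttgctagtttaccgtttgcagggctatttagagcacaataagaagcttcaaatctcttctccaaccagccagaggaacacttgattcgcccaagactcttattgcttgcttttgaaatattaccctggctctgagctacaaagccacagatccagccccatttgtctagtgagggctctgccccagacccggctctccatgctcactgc
RAB21: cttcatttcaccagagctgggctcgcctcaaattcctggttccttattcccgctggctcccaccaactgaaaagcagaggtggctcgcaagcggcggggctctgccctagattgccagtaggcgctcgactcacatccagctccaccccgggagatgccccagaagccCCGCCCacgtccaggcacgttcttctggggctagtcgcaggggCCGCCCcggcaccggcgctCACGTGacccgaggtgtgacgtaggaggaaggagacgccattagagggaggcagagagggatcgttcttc
CIB2: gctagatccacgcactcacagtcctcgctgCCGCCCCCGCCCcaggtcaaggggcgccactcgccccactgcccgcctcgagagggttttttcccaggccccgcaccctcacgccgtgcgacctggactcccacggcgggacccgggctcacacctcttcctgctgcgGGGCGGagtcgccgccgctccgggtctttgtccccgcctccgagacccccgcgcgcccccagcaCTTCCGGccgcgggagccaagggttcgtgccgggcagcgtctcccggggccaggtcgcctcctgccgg
C12orf75: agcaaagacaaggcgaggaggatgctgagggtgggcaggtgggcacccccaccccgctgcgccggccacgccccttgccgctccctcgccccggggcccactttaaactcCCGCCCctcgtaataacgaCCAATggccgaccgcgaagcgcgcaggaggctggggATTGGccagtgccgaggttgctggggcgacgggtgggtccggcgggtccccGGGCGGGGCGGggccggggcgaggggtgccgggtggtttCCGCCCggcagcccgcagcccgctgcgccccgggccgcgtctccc

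The SKAP2 sequence had a GC content of 47.7% and held none of the motif letters. RAB21 had 63.3%, CIB2 74.7% and C12orf75 75.7%, against a median of 58.7% over 35116 promoters of the same length. A GC box was found in RAB21, CIB2 and C12orf75, as in 45.0% of all promoters. Adjoining GC boxes overlap by their end bases in C12orf75 and abut in CIB2. RAB21 also held an E box (7.26% of promoters), CIB2 an ETS motif (10.3%) and C12orf75 a pair of NF-Y motifs (34.6% of promoters held any, paired or not). The TATA box (11.5%), CRE (1.85%), AP-1 (7.71%) and NRF1 (5.78%) letters were in none of the 4, and no motif was in all 4. A match of letters is a description and not a binding site.

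Genes outside the 5 shared the pattern. Limma called 10 genes, 0.0785% of those tested, lower with siRNA 1 in both contrasts, of which 4 are members. Ordered by siRNA 1 minus siRNA 2, the next were CDC23, a subunit of the anaphase-promoting complex, SLC26A2, a sulfate transporter, APH1A, a gamma-secretase subunit, PLPBP, a pyridoxal phosphate binding protein, and NEDD1, which brings gamma-tubulin to the spindle. SUMO3, a small ubiquitin-like modifier, was the last and is named after its values were seen. CDC23 read 1193 and 1134 with siRNA 1, 2817 and 2810.3 with siRNA 2, and 2820.5 and 2576 with scramble, which left 43.1% of scramble. The siRNA 1 share of scramble was 44.1% for SLC26A2, 48.5% for PLPBP, 51.5% for SUMO3, 52.9% for APH1A and 55.4% for NEDD1, against 22.5% to 42.7% for the 4 members. The members were chosen for low signals with siRNA 1, so this gap is no separate result. From the lowest siRNA 1 minus scramble difference over all genes tested, CIB2 was at place 12, MMGT1 at 17, SKAP2 at 65 and RAB21 at 107. C12orf75, which was not called in that contrast, was at place 292. Among the 16 genes called lower than with siRNA 2, SKAP2 was the member nearest the edge (-1.42), and the first outside was MATN3 (-1.32), a matrix protein gene. MATN3 read 37.4 and 32.5 with siRNA 1, 86.7 and 90.96 with siRNA 2, and 39.4 and 36.2 with scramble, so it was raised with siRNA 2 and level with scramble under siRNA 1.

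**Figure D5:**
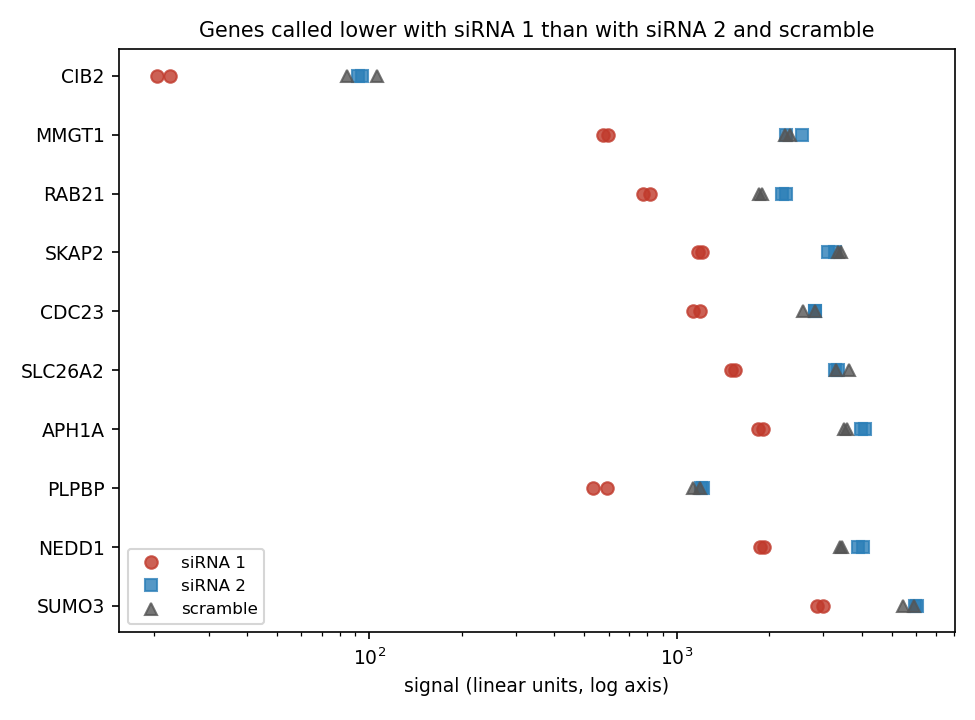
Signal on each array (log axis) for the 10 genes called lower with siRNA 1 (circles) than with siRNA 2 (squares) and scramble (triangles), ordered by the siRNA 1 minus siRNA 2 difference. CIB2 lies near the background at 20.4 to 106, and the other 9 genes read 533 to 6038.

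Likeness to a member was measured as the Euclidean distance between log2 signals centred on their mean over the 6 arrays, and the 3 nearest tested genes were taken. MMGT1 and CIB2 were each other's nearest, at 0.276 log2 units, despite signals that differ greatly in brightness. The members were chosen by differences that enter this distance, so likeness between members is partly built in. CIB2 lay near the background with siRNA 1, so its distances also rest on that level. SKAP2 was nearest to SUDS3, a subunit of the Sin3 corepressor (0.245), then to the receptor RYK (0.287) and CDC23 (0.318). RAB21 was nearest to CDC23 (0.241), then to CHPT1, a phosphatidylcholine synthesis gene (0.290), and RMND5A, a ubiquitin ligase subunit (0.319). SUDS3 read 965 and 973 with siRNA 1, 2538 and 2075 with siRNA 2, and 2589.7 and 2503 with scramble, with more spread between the siRNA 2 duplicates than SKAP2. For MMGT1 the next were RMND5A and SKAP2, both at 0.666, and for CIB2 the dim KIAA1614 (0.670) and OTOP2 (0.722). C12orf75 was farthest from its fellow members, at 0.671 from RAB21 and 1.40 from CIB2, and nearest to PDE9A (0.453), ACTG2 (0.495) and SLC4A1 (0.541). PDE9A, a cyclic GMP phosphodiesterase gene, read 59.8 and 58.9 with siRNA 1, 139 and 159.9 with siRNA 2, and 96.2 and 99.7 with scramble, the same order of groups as C12orf75.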

How the data were processed

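Each deposited value is a linear signal intensity, for 54675 probe sets on 6 arrays, made by the authors with Affymetrix Expression Console per the submitters' processing notes. The sources used here give neither its version nor the algorithm. Groups came from the sample titles; 1 siRNA 1 title spells the gene differently and was assigned by its siRNA number. Values were used on the log2(signal + 1) scale. Each gene was represented by the probe set with the highest mean log2 signal and tested when it was above the array median on at least 2 arrays. Groups were compared with limma 3.58.1 in R 4.3.3 (1 coefficient per group, eBayes, 3 residual and 1.72 prior degrees of freedom), with a call at an adjusted p under 0.05 and 1.5-fold. The fit was also run on data simulated from its own variances, which does not test whether its assumptions hold for these arrays. Probe sets were named through the platform annotation, and gene order and promoters were read from RefSeq tables of GRCh38.p14. Named genes were the members, PPP2R2A, the 5 genes next in order, nearest profiles, chromosome neighbours, relatives of the members, and from each list those called or brightest; further list genes were named after their values were seen. Members and lists were chosen with earlier results of these data known. Alternatives were another normalization, pseudocount, filter, probe set choice, prior or block, and leaving out each array. The letters A and B were not used to pair the samples in the main fit. A minus B differences correlated between groups at -0.0309 to 0.0383, which cannot settle whether arrays of the same letter were handled together. Figures were drawn with matplotlib 3.10.9.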

Additional observations from a re-analysis of the deposited data

Results flagged for a closer look

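RAB21 and C12orf75 were the 2 members for which both siRNA 1 arrays lay below both scramble arrays while both siRNA 2 arrays lay above them. The difference siRNA 1 minus siRNA 2 was -1.48 log2 units for RAB21 and -1.64 for C12orf75. It was not tested independently, since the members were chosen by it. On the other bright probe sets of RAB21, siRNA 2 and scramble overlapped. Groups of 2 arrays allow no test for an outlying array.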

How the results depend on the processing

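The number of genes called depended strongly on the settings. The counts for siRNA 1 minus scramble, siRNA 1 minus siRNA 2, siRNA 2 minus scramble and lower with siRNA 1 in both of the first contrasts were 50, 27, 76 and 10. With an intensity trend they were 299, 362, 472 and 74, and among genes above the median on all 6 arrays 244, 289, 399 and 69. Quantile normalization gave 33, 12, 71 and 5. Centring arrays on their medians gave 11, 0, 1 (which was higher) and 0, and leaving out probe sets of shared type gave 11, 5, 0 and 4. A pseudocount of 16 gave 162 for siRNA 2 minus scramble and stayed within 1.5 times for the rest, as did choosing probe sets by their linear mean, an alternative added after seeing the data. Each probe set as its own feature gave 0, 0, 1 and 0. Limma called 0 in every contrast with no filter, with probe sets averaged per gene, with the replicate block, and without each of the 6 arrays in turn, when 1461 to 1925, 1599 to 2118 and 1911 to 2397 genes had an unadjusted p under 0.05. With the replicate block these were 1921, 2235 and 2485, with no filter 2065, 2309 and 2526, and with the mean of probe sets 1371, 1495 and 1728. The fit with an intensity trend shared 46 of the 50, 24 of the 27 and 71 of the 76 calls.

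The 5 members stayed lower with siRNA 1 in both contrasts under every alternative in which they were tested. There were 17 alternatives, and 14 for CIB2. The members were chosen by these differences, so the counts are no test of the pattern. The replicate block, intensity trend, no filter, each probe set as its own feature and the linear mean left every member's differences unchanged. Filtering on every array and leaving out probe sets of shared type did the same for all but CIB2. CIB2 was not tested there, nor with the mean of probe sets. MMGT1 ran from -1.99 to -1.94 and C12orf75 from -0.92 to -0.65 for siRNA 1 minus scramble. The mean of probe sets, dim ones included, gave -0.99 for SKAP2 and -0.69 for RAB21, and its siRNA 1 minus siRNA 2 difference was -0.63 for SKAP2 and -1.21 for RAB21. For siRNA 2 minus scramble MMGT1 crossed 0 in 1 alternative (-0.017 to 0.15) and CIB2 in 4 (-0.18 to 0.14). CIB2 near the background limits what its size can show, and the signals come with no detection calls.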
